A study of Mus musculus with 32 samples.

Results

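The response to zVAD added to LPS was measured in WT bone marrow-derived macrophages (BMDMs) by comparing the 2 arrays of cells given LPS+zVAD with the 2 arrays of cells given LPS, 4 of the 32 arrays of the series, chosen by their labels. The BMDMs came from C57BL/6 mice and were grown from bone marrow with the growth factor M-CSF. Cells were treated for 6 h, with LPS at 100 ng/mL as the labels give it. The study's methods and figure legends give other doses for LPS, and the labels give none for zVAD. Arrays of WT cells left untreated, given zVAD, or given LPS+zVAD and the RipK1 kinase inhibitor Nec-1, and arrays of Ifnar1-/- cells given LPS or LPS+zVAD, were set beside this comparison, with 2 arrays in each group. The labels do not say whether the 2 replicates of a group were separate mice or cultures. The p-values measure the spread between replicate arrays pooled over all 32 arrays, and this spread may be technical. The pool includes arrays of cells given interferon beta and further Ifnar1-/- arrays. Replicate 1 of every WT group lay on slide 1 and replicate 2 on slide 2, so each slide held both sides of the comparison.

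LPS binds the receptor TLR4 of macrophages and starts NF-κB, MAPK and interferon signalling through the adaptors MyD88 and TRIF. Caspase-8, in a complex with RipK1, holds back the kinases RipK1 and RipK3, and when zVAD, a broad caspase inhibitor, is present with LPS, RipK1 and RipK3 can form the necrosome and activate MLKL, the effector of necroptosis. The question here was which genes other than cytokines, and above all which pathways, repressed genes and transcription factors, separated LPS+zVAD from LPS.

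With zVAD added to LPS, 2040 of 15825 genes rose (12.9%) and 3452 fell (21.8%), 34.7% in either direction, where a change was called at an adjusted p under 0.05 from limma over all genes. Changes of at least 2-fold made up 1465 of the rises and 2233 of the falls. These percentages are the background against which each group of genes is read below, and over all genes the log2 fold change had a median of -0.0355. With a 75th percentile shift of each array instead of quantile normalization it was 0.0825, so a small median of a list has no settled sign. WT LPS replicate 2 and WT LPS+zVAD replicate 2 carried many of the calls, and without the first 3555 genes were called and without the second 3546. The rises alone were 1103 without the second and 3176 with the slide as a block. With the slide as a block 7629 genes were called, 4453 of them lower. Fitted from the WT arrays alone 4788 genes were called, and from the 4 arrays alone, with fewer residual degrees of freedom, 1673. The median absolute difference between replicates was 0.383 log2 in WT LPS and 0.377 in WT LPS+zVAD. Across all groups it ran from 0.206 in Ifnar1-/- LPS to 0.511 in Ifnar1-/- LPS+zVAD+Nec-1. In WT LPS the probes well above background were 68.3% and 62.5% of all probes, and in WT LPS+zVAD 65.3% and 61.3%. Before normalization the 75th percentile of the log2 signal was 9.472 and 9.706 in WT LPS and 9.198 and 8.966 in WT LPS+zVAD. The part of this signal difference in the results was not tested.
All 14 macrophage markers on the list, Csf1r and Adgre1 among them, were above background on each of the 4 arrays, and the log2 of their summed intensity was 20.64 and 20.62 with LPS and 20.53 and 20.45 with LPS+zVAD, with 2 members called higher and 2 lower. Of the markers of other cells, the log2 summed intensity of 9 stromal and endothelial genes went from 13.84 and 13.11 to 14.51 and 14.33, with Vwf higher by 3.05 log2 and Pdgfrb lower. The summed neutrophil (10 genes), dendritic cell (5) and erythroid, mast cell and megakaryocyte markers (6) were lower with zVAD on both slides, the neutrophil list going from 16.21 and 16.59 to 15.84 and 16.23, the dendritic list from 16.12 and 15.89 to 15.89 and 15.72 and the last from 16.19 and 15.6 to 15.88 and 15.42, with 0 members called. The median dendritic cell marker was higher by 0.309 log2, against its sum. The T, B and NK cell list (8 genes) went from 11.73 and 11.01 to 12.14 and 11.18, also with 0 members called. The part of other cells in the results was not tested. In bulk RNA, fewer cells of a type and less RNA per cell cannot be told apart.

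Among genes other than cytokines and chemokines, the 8 largest rises included a chemokine receptor, a protease, a growth factor and a serotonin receptor. Cxcr4, the receptor for CXCL12, had a log2 intensity of 4.57 and 5.92 with LPS and 12.21 and 13.10 with LPS+zVAD. The LPS arrays were the low ones, since untreated cells stood at 11.81 and 12.04 and LPS alone had lowered the gene by 6.68 log2. The change with zVAD was 7.41 log2 (SE 1.06, adjusted p = 2.88e-05). Tmem144 followed the same course, at 8.37 and 8.64 untreated and 2.66 and 2.77 with LPS and 8.86 and 10.58 with LPS+zVAD. It was below background on both LPS arrays, so the rise is given as at least 69.0-fold (adjusted p = 2.97e-07).
Other genes that LPS+zVAD raised had no called change between LPS and untreated cells. Trim69, a member of the tripartite motif family of ubiquitin ligases, was at 4.01 and 4.96 untreated and at 4.07 and 4.97 with LPS and 11.72 and 12.06 with LPS+zVAD, a rise of 7.36 log2. Zbtb10 had 4.31 and 4.45 with LPS and 11.25 and 11.38 with LPS+zVAD (rise 6.93, SE 0.999). Htr2a, a serotonin receptor, had 5.99 and 5.41 with LPS and 12.02 and 12.71 with LPS+zVAD (rise 6.66, SE 0.66). Rgcc, a regulator of the cell cycle, was already well expressed with LPS and had 9.96 and 9.69 with LPS and 16.35 and 17.09 with LPS+zVAD (rise 6.89, SE 0.56). The rule that named these genes required both LPS+zVAD arrays to lie above both LPS arrays, so this is no added finding. It held in 27.6% of all genes, and 62.6% of genes had groups that did not overlap in either direction.
Plau, which encodes the urokinase that activates plasminogen, had 6.66 and 6.15 with LPS and 13.46 and 14.004 with LPS+zVAD (rise 7.33, SE 0.60, adjusted p = 8.46e-08). Hbegf, a ligand of the EGF receptor, had 8.04 and 6.44 with LPS and 14.10 and 14.79 with LPS+zVAD (rise 7.21, SE 0.54, adjusted p = 4.19e-08).

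The largest falls were of genes that LPS had raised and of genes with no called change under LPS. Gfi1, a transcriptional repressor of myeloid cells, was at 2.999 and 3.38 in untreated cells and had 13.02 and 13.62 with LPS and 6.34 and 6.94 with LPS+zVAD, so that LPS+zVAD cells stood far below LPS cells on both slides. The change was -6.68 log2 with a wide error (SE 1.74, adjusted p = 0.00546). Pdgfrb, a receptor for platelet-derived growth factor, had 9.87 and 10.11 with LPS and 4.41 and 2.28 with LPS+zVAD, with 1 LPS+zVAD array below background, and Gpr18, a G protein-coupled receptor, had 10.33 and 11.03 with LPS and 5.79 and 4.17 with LPS+zVAD, likewise. Gpr85, an orphan receptor of the same class, fell by 4.84 log2 (SE 0.53) from 13.23 and 13.23 to 9.34 and 7.44, and Gm9895 fell by 5.65 log2 (SE 0.69).
In contrast, Tor4a, a member of the torsin ATPase family, was at 12.77 and 12.94 untreated, at 11.88 and 13.44 with LPS and at 8.32 and 6.90 with LPS+zVAD, a log2 fold change of -5.05 (SE 0.45, adjusted p = 2.09e-07). Zkscan8, a zinc finger gene, was at 9.42 and 9.76 untreated and had 8.20 and 9.40 with LPS and 4.72 and 3.38 with LPS+zVAD, 1 of the last 2 below background. Map10 was below background on both LPS+zVAD arrays and fell at least 22.1-fold. For these falls the rule required both LPS+zVAD arrays to lie below both LPS arrays, as in 35.0% of all genes.

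**Figure D1:**
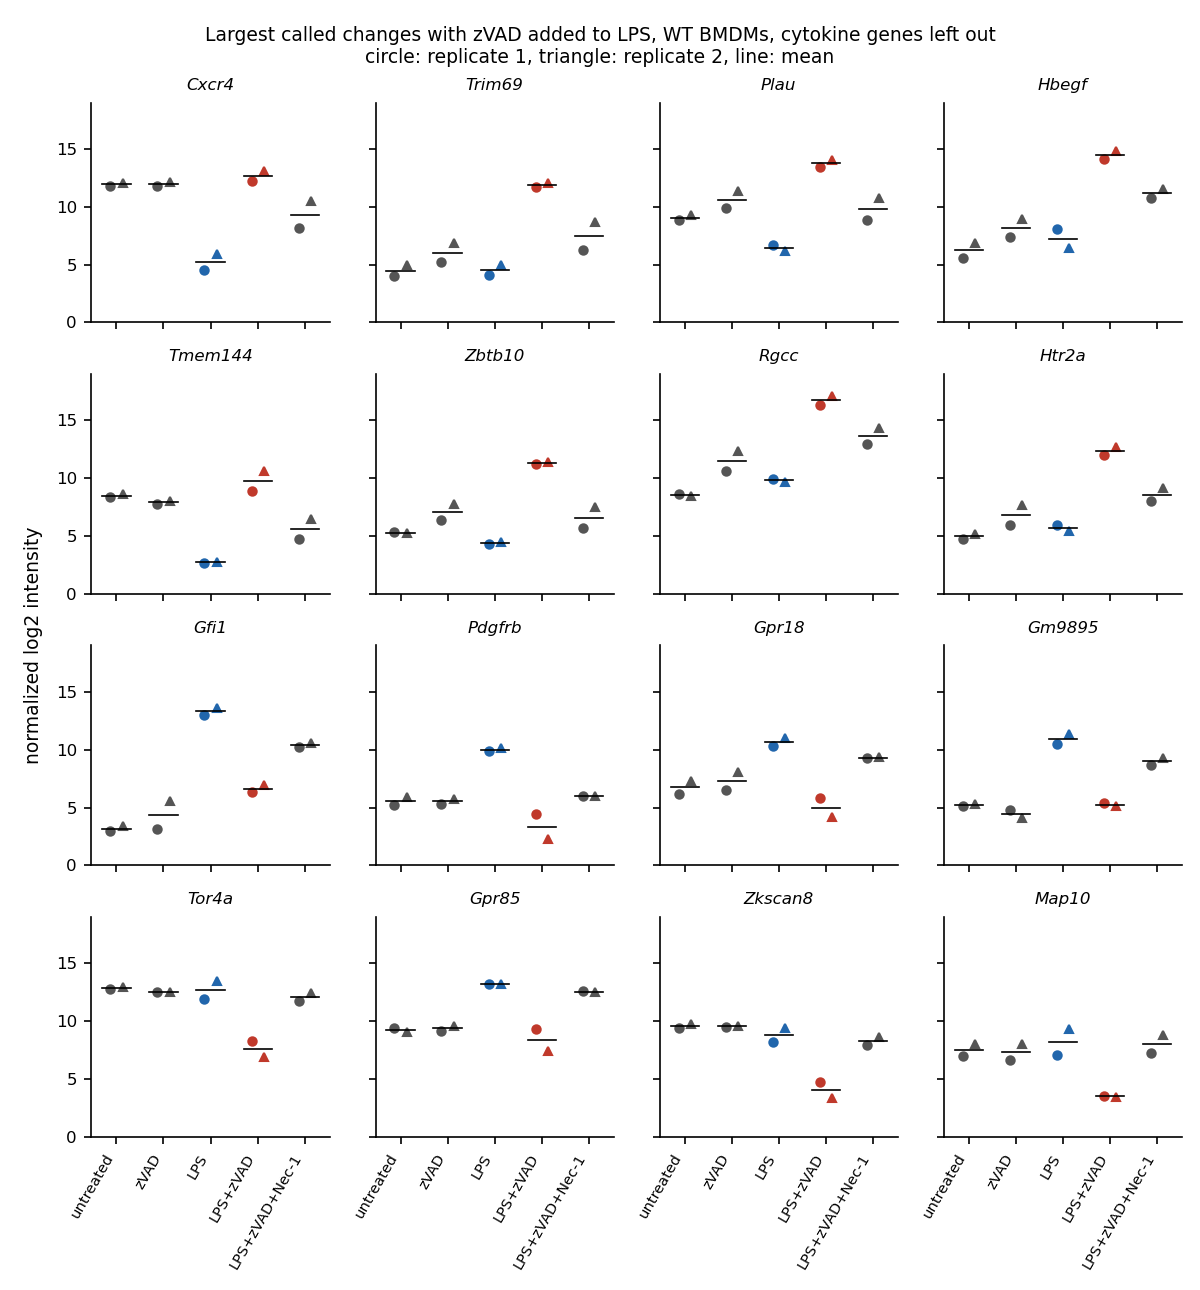
Normalized log2 intensity with LPS+zVAD (red) and LPS (blue) in WT BMDMs of the 8 genes with the largest called rises and the 8 with the largest called falls whose groups did not overlap, cytokine and chemokine genes left out, with the untreated, zVAD and LPS+zVAD+Nec-1 arrays in grey. Each point is an array and each line a group mean. By the rule of choice, the red points of the first 8 genes lie above and those of the last 8 below both blue points.

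Transcription factors changed in both directions, and the excess of falls lay in the genes named Zfp. Of 583 factor genes on 11 lists, 92 rose (15.8%) and 194 fell (33.3%), with a median log2 fold change of -0.344. Without the Zfp list, 71 of 257 rose and 63 fell.
Immediate early genes, which encode factors such as FOS, JUN and EGR1 that are made within minutes of a stimulus, rose in 14 of 23 cases (60.9%), with 3 lower and a median of 1.35. The median was 1.39 on slide 1 and 1.34 on slide 2. Csrnp1 had 12.91 and 12.15 with LPS and 16.74 and 17.05 with LPS+zVAD, a rise of 4.37 log2 (SE 0.43, adjusted p = 5.73e-07). Egr1 had 9.25 and 9.71 with LPS and 14.14 and 12.77 with LPS+zVAD (rise 3.97, SE 0.60) and the small MAF protein gene Maff had 10.94 and 11.58 with LPS and 15.11 and 15.34 with LPS+zVAD (rise 3.96, SE 0.87). Egr2 (3.70), Mafk (3.58), Ier5 (2.91), Jun (2.35), Atf3 (2.34) and Fosb (1.92) were also higher in log2 fold change, while Nab2 (-2.12), which encodes a corepressor of the EGR factors, Ier2 (-1.97) and Srf (-1.19) were lower, and 5 were lower with the slide as a block. Fos itself had a log2 fold change of 0.56 (adjusted p = 0.255). These members were named after their values were seen, apart from Csrnp1, Egr1 and Maff.
The other large rises of factors were in genes of several families. Irf4, an interferon regulatory factor of activated lymphocytes and macrophages, had 4.07 and 4.82 with LPS and 8.82 and 11 with LPS+zVAD, a rise of 5.46 log2 (SE 0.66, adjusted p = 4.95e-06). Bhlhe40, a repressor of the basic helix-loop-helix class, had 6.88 and 8.35 with LPS and 12.52 and 13.39 with LPS+zVAD (rise 5.34, SE 0.69). Rora, a nuclear receptor of the circadian clock, had 5.92 and 6.99 with LPS and 10.52 and 11.32 with LPS+zVAD (rise 4.46, SE 0.68), and Zfp382 had 7.44 and 6.99 with LPS and 11.83 and 12.59 with LPS+zVAD (rise 5.00, SE 0.38). For Irf4, Bhlhe40 and Rora the LPS arrays again lay below the untreated ones, with log2 fold changes of -3.93, -1.85 and -2.53 for LPS against untreated cells, a comparison that shares the LPS arrays.

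**Figure D2:**
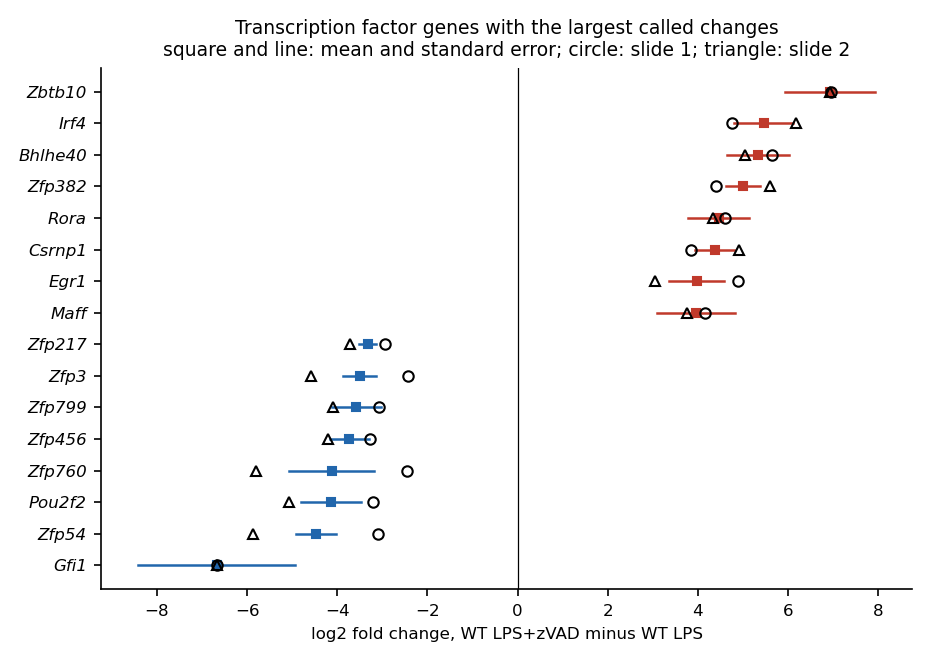
Log2 fold change of LPS+zVAD against LPS in WT BMDMs (horizontal axis) for the 8 factor genes with the largest rise and the 8 with the largest fall. Squares and lines are the mean of the 2 replicates and its standard error, circles are slide 1 and triangles slide 2, and both slides lie on the same side of 0 for every gene. Zfp760 and Zfp799 are drawn at fitted values, although both LPS+zVAD arrays were below background.

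Genes named Zfp, most of which encode zinc finger proteins of the KRAB and related classes that bind DNA and repress transcription, formed the largest block of repressed factors. Of 326 tested, 131 fell (40.2%) and 21 rose (6.44%), with a median of -0.52 and slide medians of -0.456 and -0.683. In the same cells zVAD without LPS left the list at a median of -0.083. LPS against untreated cells, a comparison that shares the LPS arrays, already gave a median of -0.455. Zfp54 had 7.72 and 9.04 with LPS and 4.64 and 3.18 with LPS+zVAD, a fall of 4.48 log2 (SE 0.44, adjusted p = 6.64e-07). Zfp456 had 7.48 and 8.76 with LPS and 4.20 and 4.57 with LPS+zVAD (change -3.74, SE 0.44), Zfp3 7.25 and 8.32 with LPS and 4.83 and 3.73 with LPS+zVAD (change -3.51, SE 0.36) and Zfp217 11.99 and 12.34 with LPS and 9.05 and 8.62 with LPS+zVAD (change -3.33, SE 0.18). Zfp54 and Zfp3 were below background on 1 LPS+zVAD array each, and Zfp217 stayed well above background on both (adjusted p = 2.31e-09). Zfp760 and Zfp799 were below background on both LPS+zVAD arrays and are bounded at falls of at least 7.62-fold and at least 5.41-fold, and Zfp760 was not called without WT LPS replicate 2 (log2 fold change -2.66). The count of lower Zfp genes was 67 without WT LPS replicate 2 and 37 when fitted from the 4 arrays alone. The count of higher ones was 12 without WT LPS replicate 1, 10 without WT LPS+zVAD replicate 2 and 33 with the slide as a block.
ZBTB genes, a related zinc finger family, had 8 members higher and 13 lower of 34. Zbtb10, described above, stood at the top and Zbtb12 (-3.04) at the bottom. The counts were 5 higher without WT LPS replicate 1, 2 higher without WT LPS+zVAD replicate 2 and 8 lower without WT LPS replicate 2.
Pou2f2, an octamer-binding factor, had 13.23 and 12.92 with LPS and 10.02 and 7.85 with LPS+zVAD and fell by 4.14 log2 (SE 0.67, adjusted p = 0.000107).

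Factors that define macrophages did not move as a block, with 13 of 48 higher (27.1%) and 13 lower (27.1%) and a median of -0.0644 that was 0.0295 under the 75th percentile shift. Spi1, which encodes the lineage factor PU.1, had 13.11 and 12.67 with LPS and 11.71 and 11.10 with LPS+zVAD (log2 fold change -1.49, adjusted p = 0.000528). Spic, its close relative in iron-recycling macrophages, had a log2 fold change of -3.07 (adjusted p = 0.0179), Maf of -2.50, Ikzf1 of -1.97 and Nr1h3, the oxysterol receptor LXRα, of -2.12. On the other side were Runx2 (2.91), Bhlhe41 (2.94), Smad3 (2.51), Id2 (2.39) and Pparg (2.33).
IRF and STAT factors had 7 of 22 higher, led by Irf4, and 3 lower, and 3 were higher without WT LPS replicate 2 or without WT LPS+zVAD replicate 2. The lower genes were Irf3 (-1.84), the factor that TRIF signalling activates, Stat5b (-0.94) and Stat6 (-0.65), and 6 were lower with the slide as a block. Of the NF-κB factors and inhibitors, 3 of 15 rose and 3 fell, with 0 or 1 called on either side without WT LPS replicate 2 or without either LPS+zVAD array, and 0 lower without WT LPS replicate 1. Nuclear receptors had 5 of 15 higher, with the circadian repressors Nr1d1 (2.52) and Nr1d2 (2.66) beside Rora, and 5 lower, which were 3 without any 1 of the 4 arrays. KLF and SP factors had 3 of 13 higher, Klf4 (3.83), Klf9 (3.40) and Klf2 (1.96), and 5 lower, which were 3 without WT LPS replicate 2 and 2 without WT LPS+zVAD replicate 2.
Among stress factors 6 of 31 rose, Crem (2.89), Bach2 (2.57) and Bach1 (2.18) the most, and 4 fell, among MYC and E2F factors 4 of 22 rose, Myc (1.72) the most, and 4 fell, and among HES, TCF, SMAD and homeobox factors 8 of 36 rose and 10 fell. Without WT LPS+zVAD replicate 2 the rises in these 3 lists were 3, 2 and 5, and without WT LPS replicate 2 the falls were 2, 2 and 4. With the slide as a block, 8 stress factors fell and 7 MYC and E2F factors rose. The gene names in this paragraph were chosen after their values were seen.

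The lists of growth factors and of dual specificity phosphatases with other feedback genes had, after the immediate early genes, the highest share of rises. Of 22 EGF ligands and growth factors, 10 rose (45.5%) and 2 fell, with a median of 1.14. Beside Hbegf, the largest was Gdf15, a stress-induced member of the TGFβ family, with 10.14 and 9.75 with LPS and 16.57 and 16.60 with LPS+zVAD (rise 6.64, SE 0.85, adjusted p = 9e-06). Bmp2 (4.70), Inhba (3.51), Vegfa (3.27), Pdgfa (3.06) and Csf1 (2.38) also rose, while Inhbb fell by 2.34 log2 and Nrg1 by 1.63. Without WT LPS+zVAD replicate 2, 5 members were called higher and 1 lower, and Nrg1 was not called without WT LPS replicate 2 or without either LPS+zVAD array.
Of 23 dual specificity phosphatases and other feedback genes, 12 rose (52.2%) and 3 fell, with a median of 1.6. Dusp10, which dephosphorylates p38 and JNK, had 7.56 and 4.94 with LPS and 10.60 and 12.07 with LPS+zVAD (rise 5.08, SE 0.72). Rgs1, a regulator of G protein signalling, had 11.29 and 11.38 with LPS and 16.34 and 16.66 with LPS+zVAD (rise 5.17, SE 0.61, adjusted p = 3.96e-06). Dusp14 (4.29), Dusp8 (4.03), Dusp4 (3.37) and Dusp5 (3.37) rose with them. Dusp2 had 16.96 and 16.46 with LPS and 14.74 and 14.15 with LPS+zVAD and fell by 2.26 log2, Pde4b fell by 2.39 log2, and Dusp1 had a log2 fold change of 0.08 (adjusted p = 0.936). The call of Pde4b was lost without either LPS array and without WT LPS+zVAD replicate 2, and 1 list member was called lower without either second replicate.
MAPK cascade kinases had 7 of 37 higher (18.9%) and 9 lower (24.3%), where all genes had 12.9% and 21.8%. Mknk2, a kinase that phosphorylates the translation factor eIF4E, had 11.04 and 12.15 with LPS and 15.76 and 15.72 with LPS+zVAD (rise 4.14, SE 0.48), and Rps6ka2 rose by 2.92 log2. Rps6ka1, of the same RSK family, fell by 2.56 log2, and Map3k11 fell by 2.37 log2 (SE 0.21, adjusted p = 2.05e-07). The higher count was 4 without WT LPS+zVAD replicate 2.

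Of 40 G protein-coupled receptors, 5 rose (12.5%) and 13 fell (32.5%), with a median of -0.696. P2ry1, a receptor for ADP, had 5.95 and 6.12 with LPS and 8.95 and 10.26 with LPS+zVAD (rise 3.57, SE 0.54). Fpr1, the receptor for bacterial formyl peptides, had 15.65 and 16.41 with LPS and 12.82 and 10.46 with LPS+zVAD (change -4.39, SE 1.38, adjusted p = 0.0185), a call lost without WT LPS replicate 2 or WT LPS+zVAD replicate 2. The adenosine receptors Adora3 (-4.31) and Adora2b (-3.34), the chemoattractant receptors Cmklr1 (-3.22), Cx3cr1 (-3.10) and Ccr2 (-2.24), and the prostaglandin receptor Ptger2 (-3.08) were among the lower ones, named after their values were seen. Without WT LPS replicate 2, 8 were called lower and 3 higher, and 3 were higher without either LPS+zVAD array.
Of 29 Toll-like receptors and adaptors, 4 rose and 9 fell (31.0%), and without WT LPS+zVAD replicate 2 the counts were 2 and 5. Tlr1, which senses lipopeptides, had 14.27 and 14.64 with LPS and 11.99 and 9.86 with LPS+zVAD (change -3.53, SE 0.74), and Irak3, an inhibitor of the pathway, fell by 2.74 log2, a call lost without WT LPS+zVAD replicate 2. Tollip, another inhibitor, had 12.72 and 12.56 with LPS and 14.44 and 14.68 with LPS+zVAD (rise 1.92, SE 0.23), and Ticam1, which encodes TRIF, rose by 1.28 log2. The remaining 7 lower genes were Ikbke (-2.72), Ticam2 (-2.68), Tlr8 (-2.47), Tirap (-1.76), Irak4 (-1.66), Tlr6 (-1.74) and Myd88 (-0.95). Tlr4 had a log2 fold change of -0.78 (adjusted p = 0.0872).
Phagocytic and scavenger receptors had 5 of 36 higher (13.9%) and 9 lower (25.0%), close to the shares of all genes. The Fc receptors for IgG held 4 of the 9, Fcgr2b with 15.87 and 16.57 with LPS and 13.43 and 12.40 with LPS+zVAD (change -3.31, SE 0.63), Fcgr1 (-2.57), Fcgr4 (-2.08) and Fcgr3 (-1.19), and Tyro3 (2.08) and Colec12 (1.74) led the rises. Without WT LPS replicate 2 the counts were 2 higher and 5 lower, and without WT LPS+zVAD replicate 2 they were 1 and 5. Fcgr1 was not called without either of these arrays and Colec12 was not without the latter.
Growth factor receptors had 5 of 26 higher, with Tgfbr1 (2.30) and Igf1r (2.19) first, and 4 lower, with Acvr1b (-2.93) after Pdgfrb, and 3 were higher without WT LPS replicate 2. Integrins and adhesion genes had 4 of 27 higher (14.8%) and 6 lower (22.2%), F11r (-1.71) among the latter, close to the shares of all genes. The rises of Itgav (1.49) and Itgb3 (2.24), whose products pair as a receptor for vitronectin, were both lost without WT LPS+zVAD replicate 2, that of Itgav also without WT LPS replicate 2 and that of Itgb3 without WT LPS replicate 1, and Itgb3 had -0.35 log2 in the mean of its 2 probes.

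In the death machinery, Casp8, the initiator caspase whose activity zVAD blocks, had 13.95 and 13.62 with LPS and 12.86 and 12.71 with LPS+zVAD, a fall of 0.997 log2 (SE 0.23, adjusted p = 0.00217). Ripk1 had 12.42 and 12.21 with LPS and 13.37 and 13.67 with LPS+zVAD and Ripk3 had 11.47 and 12.16 with LPS and 12.92 and 13.86 with LPS+zVAD, and both rose, by 1.21 log2 (SE 0.16) and 1.57 log2 (SE 0.28). Mlkl had 14.31 and 13.85 with LPS and 14.29 and 14.88 with LPS+zVAD, which overlap, and a log2 fold change of 0.50 (SE 0.27, adjusted p = 0.165). Cflar, which encodes the caspase-8 partner cFLIP, had 13.67 and 13.35 with LPS and 14.41 and 14.54 with LPS+zVAD (log2 fold change 0.96, SE 0.49, adjusted p = 0.146), and 3 of its 4 probes had the same sign.
Over the list of caspases and the death receptor complex, 4 of 32 rose and 10 fell (31.2%). Ripk2 (2.23), the kinase of the NOD receptors, and Ticam1 were the other rises. Casp9, the caspase of the apoptosome, had 11.33 and 12.30 with LPS and 10.05 and 9.11 with LPS+zVAD (change -2.24, SE 0.31), and Cyld, a deubiquitinase that acts on RipK1, had 8.32 and 8.996 with LPS and 7.50 and 6.80 with LPS+zVAD (change -1.51, SE 0.30). Other lower members included Rbck1 (-1.25), Rnf31 (-0.70) and Sharpin (-0.50), the 3 subunits of the linear ubiquitin ligase, Tradd (-1.18), Tnfrsf1a (-0.85) and Casp1 (-1.10).
Of 16 BCL2 family genes 4 rose and 3 fell. The rises were all of BH3-only genes, which promote apoptosis: Pmaip1 (3.06), Bcl2l11 (2.31), Bid (1.47) and Bbc3 (1.31). Only 1 of these rises was called without WT LPS+zVAD replicate 2, 2 without either LPS array. Pmaip1 was not called without WT LPS replicate 1 and WT LPS+zVAD replicate 2 in turn, Bcl2l11 without either second replicate, and Bcl2l11 was not called in the mean of its 2 probes (0.63 log2, adjusted p = 0.524). Among the falls were 2 further BH3-only genes, Bmf, below background on both LPS+zVAD arrays and lower by at least 7.46-fold (not called under normexp correction, -1.13 log2, adjusted p = 0.135), and Bad (-1.07).
Inflammasome genes had 2 of 17 higher, Nlrp1b (1.35) and Nek7 (0.90), and 6 lower (35.3%). Txnip, which binds thioredoxin, had 13.06 and 14.02 with LPS and 11.40 and 10.57 with LPS+zVAD (change -2.56, SE 0.49), and Pycard, which encodes the adaptor ASC, had 14.43 and 14.74 with LPS and 12.95 and 12.18 with LPS+zVAD (change -2.01, SE 0.28, adjusted p = 1.87e-05). Aim2 (-1.47), Casp1, Gsdmd (-1.04) and Naip2 (-0.57) made up the rest. The rise of Nlrp1b was lost without WT LPS+zVAD replicate 1.

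Genes of protein degradation and of the mitochondrion had many falls, most of them small. The arrays compared also differed in signal before normalization, as given above. The proteasome, which degrades ubiquitin-tagged proteins, had 24 of 46 members lower (52.2%) and 1 higher, with a median of -0.615 and slide medians of -0.451 and -0.67. Psma6, a subunit of the core particle, had 15.94 and 16.27 with LPS and 14.16 and 13.72 with LPS+zVAD (change -2.17, SE 0.25, adjusted p = 3.84e-06), and Psmd5, an assembly chaperone, had 10.97 and 11.44 with LPS and 9.42 and 8.66 with LPS+zVAD (change -2.16, SE 0.25). Psmd8, a subunit of the regulatory particle, went the other way with 14.28 and 13.73 with LPS and 15.74 and 16.07 with LPS+zVAD (rise 1.898, SE 0.24). Psmc3ip (-0.75), on the list by its name, encodes a recombination factor. Fitted from the 4 arrays alone, 3 proteasome genes were called lower, and so were 3 genes of the mitochondrial ribosome and 1 of the respiratory chain. LPS against untreated cells gave medians of 0.371 for the proteasome, -0.285 for the mitochondrial ribosome and -0.425 for the respiratory list, with the LPS arrays shared.
Of 78 genes of the mitochondrial ribosome, 41 fell (52.6%), with a median of -0.499 and slide medians of -0.326 and -0.719. The count was 21 without WT LPS replicate 2 and 26 without WT LPS+zVAD replicate 2. Mrpl44 had 11.66 and 11.91 with LPS and 10.19 and 10.00 with LPS+zVAD (change -1.69, SE 0.14), while Mrps6 had 12.05 and 12.11 with LPS and 14.44 and 14.46 with LPS+zVAD and rose by 2.37 log2 (SE 0.20, adjusted p = 1.69e-07), against the direction of the list. Of 90 respiratory chain and ATP synthase genes, 31 fell (34.4%) and 2 rose, with a median of -0.329 and slide medians of -0.181 and -0.459. Ndufaf1, an assembly factor of complex I, had 10.97 and 11.53 with LPS and 9.66 and 9.76 with LPS+zVAD (change -1.54, SE 0.17), and the fall of Cox6a2 (-1.63) was lost without WT LPS+zVAD replicate 2. The respiratory count was 20 under the 75th percentile shift, 47 with the slide as a block, 11 without WT LPS replicate 2 and 10 without WT LPS+zVAD replicate 2.
The tricarboxylic acid cycle had 7 of 22 lower, Dlat (-1.57) and Ogdh (-1.16) the most, and 1 higher, Pdhb (1.37), although Dlat and Pdhb encode parts of the same pyruvate dehydrogenase complex. Glycolysis had 10 of 24 lower (41.7%) and 3 higher, and 4 were lower without WT LPS replicate 2. Pfkfb4 had 11.37 and 12.45 with LPS and 9.91 and 9.69 with LPS+zVAD (change -2.11, SE 0.30). The lactate exporter gene Slc16a3 had 13.62 and 16.07 with LPS and 12.20 and 12.74 with LPS+zVAD, and its fall of 2.37 log2 was not called without WT LPS replicate 2 or without WT LPS+zVAD replicate 1. Hexokinase genes rose, Hk3 by 1.35 and Hk2 by 0.87 log2, with Eno2 (1.75), whose call was lost without WT LPS+zVAD replicate 2, and 5 glycolysis genes were higher with the slide as a block.
By contrast, of 80 genes of the cytosolic ribosome 1 rose and 2 fell (Rps3 0.56, Rps4l -0.94, Rpl7l1 -0.59), with a median of 0.148, and none of the 3 calls held without each array in turn. Under the 75th percentile shift 14 rose, and 11 did when the slide was a block. Cytosolic tRNA synthetases had 3 of 20 higher (15%), Rars (1.56) first, and 4 lower (20%), Farsb (-0.98) first, close to the shares of all genes. With single arrays left out these counts went down to 1 on each side.

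**Figure D3:**
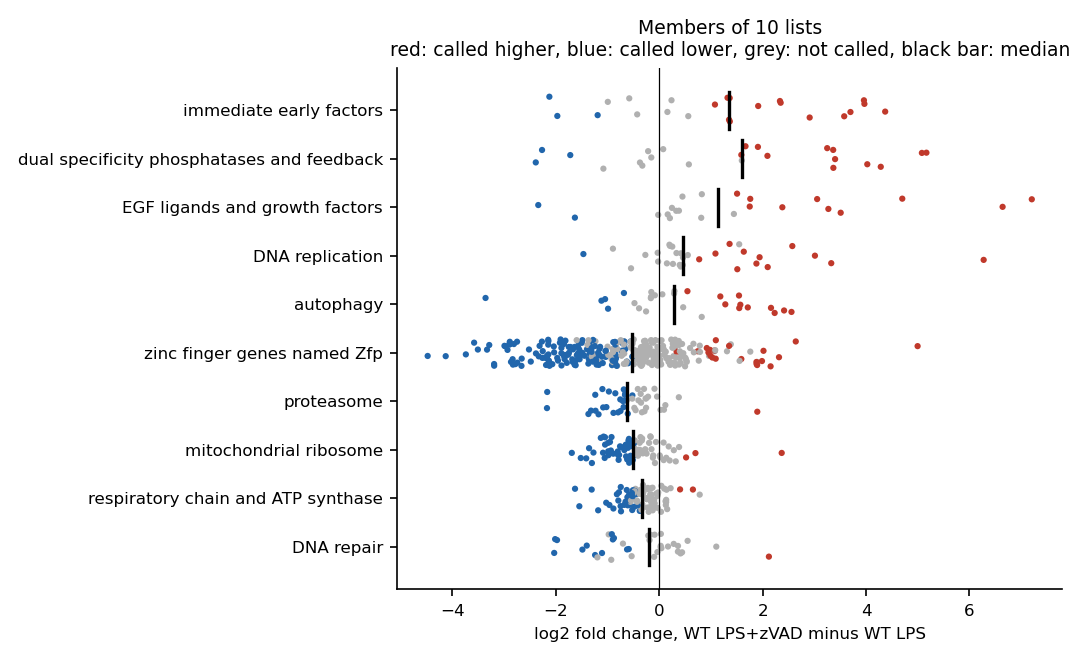
Log2 fold change of LPS+zVAD against LPS in WT BMDMs (horizontal axis) for every tested member of 10 lists. Red points were called higher, blue points lower and grey points were not called, and black bars are list medians, from 1.6 for the feedback list to -0.615 for the proteasome.

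The next list held ATF4, the factor of the integrated stress response, and genes of the ATF4 and amino acid response. Of its 23 genes 8 rose (34.8%) and 0 fell, with a median of 0.758 (1.08 on slide 1 and 0.236 on slide 2). Without WT LPS replicate 1, 5 rose. Asns, asparagine synthetase, had 10.45 and 11.81 with LPS and 14.33 and 14.12 with LPS+zVAD (rise 3.10, SE 0.85), a call lost without WT LPS replicate 1, and Ppp1r15a, which encodes the phosphatase subunit GADD34, had 13.23 and 13.22 with LPS and 16.04 and 16.20 with LPS+zVAD (rise 2.89, SE 0.56, adjusted p = 0.000473). Slc1a5 (2.35), Atf3, Atf4 (1.63), Cebpg (0.999), Slc3a2 (0.76) and Shmt2 (0.82) were the others.
Of 23 unfolded protein response genes, 8 fell (34.8%) and 2 rose, with slide medians of -0.102 and -0.685, and 4 fell without WT LPS replicate 2 or without WT LPS+zVAD replicate 2. Ern1, which encodes the sensor IRE1α, had 8.86 and 9.06 with LPS and 11.72 and 12.10 with LPS+zVAD and rose by 2.95 log2 (SE 0.26, adjusted p = 2.09e-07), while Xbp1, whose mRNA IRE1α splices, had 15.74 and 15.54 with LPS and 14.70 and 13.72 with LPS+zVAD and fell by 1.43 log2 (SE 0.25). Dnajb9 rose by 1.597 log2 and Dnajb11 fell by 1.06 log2, both chaperones of the endoplasmic reticulum. Among 24 heat shock and chaperone genes 5 rose, Dnajb4 (2.93) and Hspb1 (2.10) the most, and 3 fell. Without WT LPS+zVAD replicate 2 the counts were 2 and 1, with the slide as a block 5 fell, and Hspb1 was not called without WT LPS replicate 2.
NRF2 targets had 2 of 25 higher, Sqstm1 (2.56) and Gclc (1.48), and 4 lower, Gsr with 14.97 and 15.45 with LPS and 13.48 and 12.03 with LPS+zVAD (change -2.45, SE 0.38) and G6pdx (-2.04) the most, with 2 lower without either second replicate and 8 with the slide as a block. Iron and heme genes had 3 of 20 higher (15%) and 4 lower (20%), close to the shares of all genes. The heme exporter gene Flvcr1 had 9.04 and 9.95 with LPS and 12.76 and 13.74 with LPS+zVAD (rise 3.76). Of the lower ones, Lcn2 had 16.03 and 16.65 with LPS and 12.57 and 12.68 with LPS+zVAD (change -3.71, SE 0.88). Cp, ceruloplasmin, had 15.23 and 15.49 with LPS and 12.64 and 10.05 with LPS+zVAD (change -4.01, SE 1.203). Cp was not called without either second replicate, where 1 gene of the list was called lower.
Insig1, which holds back sterol synthesis, had 9.92 and 9.39 with LPS and 13.04 and 12.55 with LPS+zVAD (rise 3.14, SE 0.37). The factor gene Srebf2 rose by 1.596 log2. Of 25 cholesterol synthesis genes 4 fell, Fdps (-1.70, lost without either second replicate) and Nsdhl (-1.50, lost without WT LPS+zVAD replicate 2) the most. That count was 0 without WT LPS+zVAD replicate 2, 1 without WT LPS replicate 2, 10 without WT LPS+zVAD replicate 1, 7 under the 75th percentile shift and 11 with the slide as a block. Of 26 lipid handling genes 6 rose, with Fabp4, a fatty acid binding protein, at 12.83 and 12.35 with LPS and 16.31 and 16.71 with LPS+zVAD (rise 3.92, SE 0.61) and Acsl3 at 7.76 and 8.41 with LPS and 11.38 and 11.74 with LPS+zVAD (rise 3.47, SE 0.30), and 5 fell, of which 1 was called without either second replicate. The rises were 3 without WT LPS replicate 2 or WT LPS+zVAD replicate 1 and 10 with the slide as a block.

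Lysosome, autophagy and DNA replication genes had more rises than falls. Of 36 lysosomal genes 11 rose (30.6%) and 1 fell, and 7 rose without either second replicate. The proton pump subunit genes Atp6v0d2, with 11.48 and 10.81 with LPS and 14.27 and 15.21 with LPS+zVAD (rise 3.60, SE 0.50), and Atp6v1h (1.77) rose the most, and Ctsc, cathepsin C, fell by 2.63 log2 (SE 0.35, adjusted p = 1.25e-05). Autophagy genes had 11 of 28 higher (39.3%) and 5 lower. The cargo receptor gene Sqstm1 had 13.49 and 12.78 with LPS and 15.58 and 15.81 with LPS+zVAD (rise 2.56, SE 0.61) and the ATG8 family gene Gabarapl1 had 14.55 and 14.49 with LPS and 16.68 and 17.19 with LPS+zVAD (rise 2.42, SE 0.19, adjusted p = 5.14e-08). Atg9a, which encodes the lipid scramblase of the early autophagosome, had 9.93 and 10.35 with LPS and 7.35 and 6.22 with LPS+zVAD and fell by 3.36 log2, and Atg5 fell by 1.12 log2, a call lost without WT LPS replicate 2. There 1 gene was called lower, and without WT LPS+zVAD replicate 1 there were 3.
Of 31 DNA replication genes 12 rose (38.7%) and 1 fell, with a median of 0.458. Cdc6, which loads the replicative helicase, was at 6.75 and 7.202 in untreated cells and had 2.85 and 3.97 with LPS and 8.95 and 10.42 with LPS+zVAD. Both LPS arrays were below background, so it rose at least 67.6-fold (adjusted p = 3.35e-08). Ccne1, cyclin E, had 10.54 and 9.94 with LPS and 12.96 and 14.18 with LPS+zVAD (rise 3.33, SE 0.31), and Mcm4 (3.01), Orc1 (2.58) and Cdt1 (2.10) rose too. Mitotic genes had 9 of 28 higher (32.1%) and 0 lower, with Bub1b at 5.76 and 4.95 with LPS and 8.51 and 10.21 with LPS+zVAD (rise 4.0, SE 0.46) and Cdc20 at 9.22 and 8.37 with LPS and 10.90 and 11.67 with LPS+zVAD (rise 2.49, SE 0.47), a count that was 4 without WT LPS replicate 2 and 15 with the slide as a block. LPS against untreated cells gave medians of -1.22 for the replication, -1.63 for the mitotic and -1.10 for the DNA repair list, with the LPS arrays shared. DNA repair genes, on the other hand, had 1 of 36 higher, Blm (2.12), and 12 lower (33.3%), the mismatch repair gene Pms2 (-2.03, lost without WT LPS replicate 2) and Fanca (-1.97) among them, with 6 lower without WT LPS replicate 2, 7 without WT LPS+zVAD replicate 2 and 0 when fitted from the 4 arrays alone.

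Genes that type I interferon induces stood high in both groups. Of 40 on the list 5 rose (12.5%), near the background share of 12.9%, and 3 fell, and LPS against untreated cells had a median of 3.10 for this list. Cmpk2 had 16.98 and 15.71 with LPS and 17.82 and 17.85 with LPS+zVAD (rise 1.49, SE 0.39) and Ifit2 16.33 and 15.32 with LPS and 16.79 and 17.27 with LPS+zVAD (rise 1.21, SE 0.43). Both calls were lost without WT LPS replicate 2 (0.85 and 0.70 log2), and that of Ifit2 also without WT LPS+zVAD replicate 2 (0.97 log2). Fewer members of the list were called higher without either of these arrays, and 8 were with the slide as a block. Psmb9, a subunit of the immunoproteasome, fell by 1.32 log2. The gene for the receptor subunit Ifnar1 itself had 14.36 and 14.59 with LPS and 12.38 and 11.18 with LPS+zVAD, a fall of 2.70 log2 (SE 0.66, adjusted p = 0.00345), named after its value was seen. Class I presentation had 0 of 16 higher and 3 lower, with Tap2 (-0.77, lost without WT LPS replicate 1) and H2-T10 (-0.95), a gene of a family with similar copies. Class II presentation and costimulation had 2 of 16 higher and 1 lower, Cd86 with 12.59 and 11.97 with LPS and 13.99 and 15.20 with LPS+zVAD (rise 2.32, SE 0.36) against Cd80 with 11.57 and 11.60 with LPS and 10.97 and 10.04 with LPS+zVAD (change -1.08, SE 0.26), the latter not called without WT LPS+zVAD replicate 2 or in the authors' normalized values (-0.06 log2).
Of 25 complement and coagulation genes 3 rose, Plau, its receptor gene Plaur (1.85) and F3, tissue factor, which starts coagulation, at 8.83 and 7.61 with LPS and 13.85 and 14.99 with LPS+zVAD (rise 6.199, SE 0.71, adjusted p = 2.99e-06). The 6 lower ones included Thbd, thrombomodulin, which restrains coagulation (-2.69, lost without WT LPS replicate 2 and without either LPS+zVAD array), C1ra (-2.08) and C4b (-1.78), and 2 were lower without WT LPS+zVAD replicate 2.
Genes of RNA decay had 7 of 31 higher and 6 lower. Zfp36l2 had 11.26 and 12.54 with LPS and 14.83 and 15.46 with LPS+zVAD (rise 3.25, SE 0.42, adjusted p = 1.1e-05) and Zfp36, which encodes the AU-rich element binding protein tristetraprolin, 13.61 and 12.24 with LPS and 14.83 and 14.21 with LPS+zVAD (rise 1.59, SE 0.55, adjusted p = 0.0315). Zfp36 was not called without WT LPS replicate 2 (0.91 log2) or without either LPS+zVAD array. The lower ones included the deadenylase genes Parn (-1.21) and Cnot3 (-1.197, lost without WT LPS replicate 2 or either LPS+zVAD array). The higher count was 2 without WT LPS replicate 2 and the lower count 3 there, and 10 with the slide as a block.
RNA polymerase II elongation and termination had 1 of 33 higher, Polr2h (0.85, lost without WT LPS replicate 1 or WT LPS+zVAD replicate 2), and 8 lower (24.2%), near the background of 21.8%, with the 3′ end processing genes Cstf2 (-1.70) and Cpsf3 (-1.48) the most, and 5 were lower without WT LPS replicate 2. Chromatin modifiers had 8 of 48 higher and 15 lower. Kdm6b, a demethylase of histone H3 lysine 27, had 10.70 and 11.03 with LPS and 14.46 and 14.52 with LPS+zVAD (rise 3.62, SE 0.78), Sirt1 10.84 and 10.69 with LPS and 13.88 and 14.19 with LPS+zVAD (rise 3.27, SE 0.25, adjusted p = 5.14e-08), Kdm4a 13.60 and 13.42 with LPS and 11.61 and 11.27 with LPS+zVAD (change -2.07) and Hdac7 16.52 and 16.61 with LPS and 14.54 and 14.85 with LPS+zVAD (change -1.87).

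**Figure D4:**
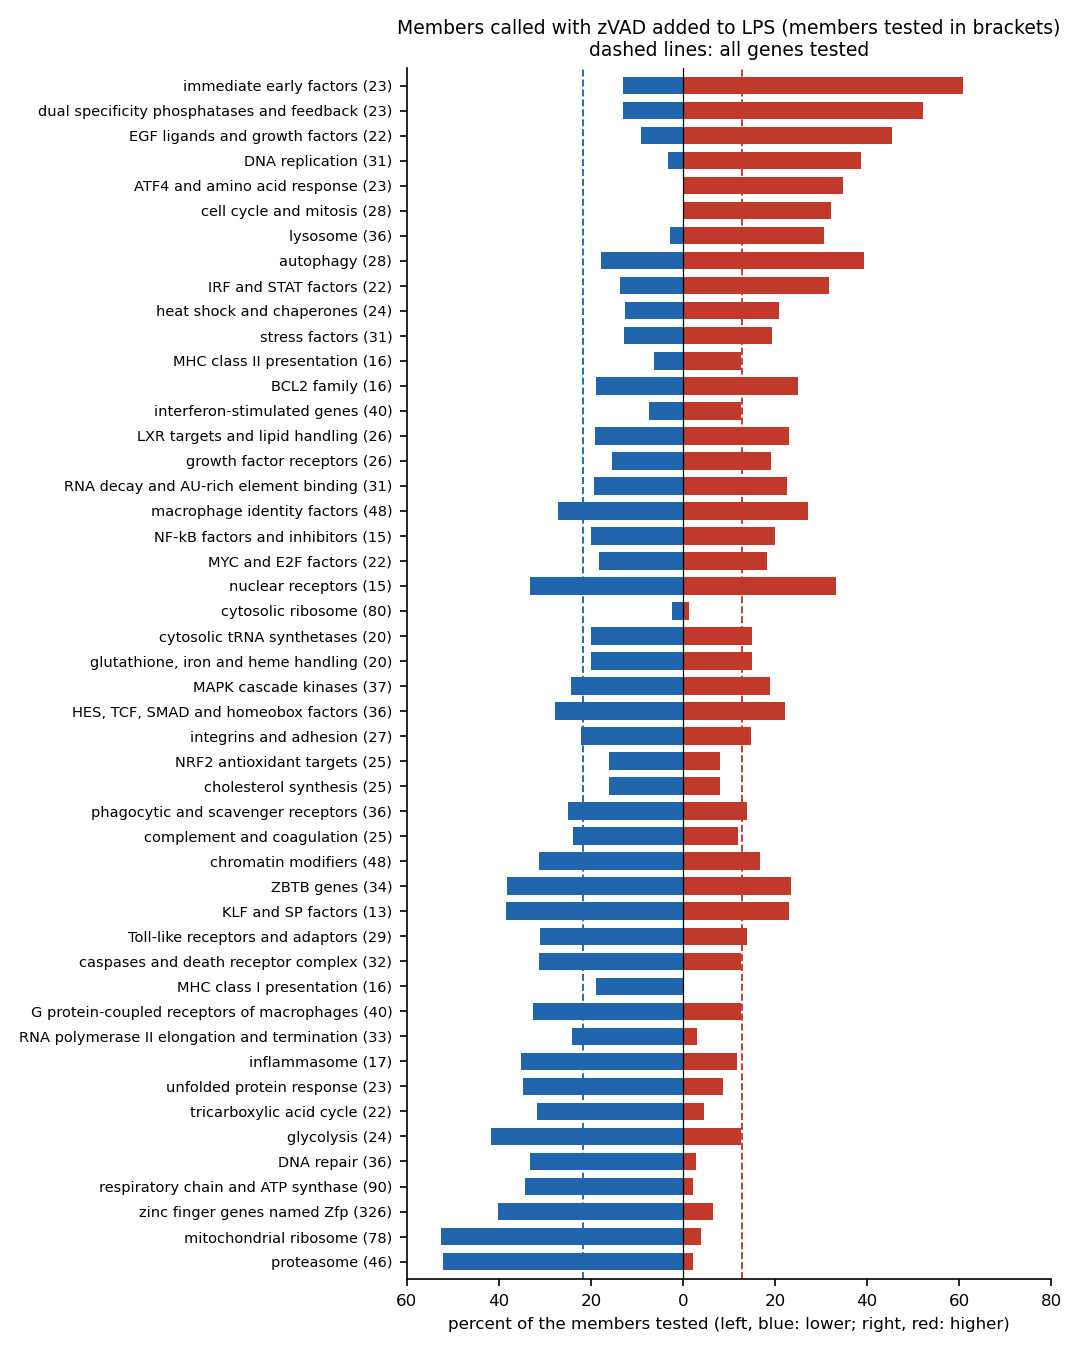
Percent of the tested members of each list that were called higher (red, to the right) and lower (blue, to the left) with zVAD added to LPS in WT BMDMs, ordered by the difference of the shares. Dashed lines are the shares among all genes, 12.9% and 21.8%, and the members tested are in brackets, with immediate early factors at the top and the proteasome at the bottom.

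Without LPS, zVAD gave 1 called gene of 15825 (0.00632%) against untreated WT cells, the chemokine gene Ccl4, with 895 genes at an unadjusted p under 0.05. The difference between the zVAD effect with LPS and that without it was called in 3400 genes (21.5%) by an interaction contrast, more positive with LPS in 1137 (7.18%) and more negative in 2263 (14.3%). Blocking on the slide gave 5898 genes, and leaving out single arrays gave 2093 to 3641. It was 2222 without WT LPS replicate 2, 2093 without WT LPS+zVAD replicate 2 and 2232 without WT zVAD replicate 2.
Among the largest positive differences were Cxcr4 (7.40 log2), Fam214a (6.61) and Irf4 (6.52). Tmem144 and Cdc6 were also called, but both were below background on the 2 LPS arrays, so no size is given for their differences. In Fam214a the levels were 11.53 and 11.71 untreated, 10.91 and 10.67 with zVAD, 4.57 and 5.37 with LPS and 10.79 and 10.71 with LPS+zVAD, so that the LPS arrays alone were low. The largest negative ones were in Gfi1 (-7.85), Pdgfrb (-6.62), Gpr18 (-6.23), Fpr1 (-6.15) and Ambp (-5.73). Each of the calls for Gfi1 and Fpr1 was lost without WT LPS replicate 2, WT LPS+zVAD replicate 2, WT zVAD replicate 2 or either untreated array, that of Gfi1 also without WT LPS+zVAD replicate 1 and that of Fpr1 without WT zVAD replicate 1. Ambp, a plasma protease inhibitor gene, was at 3.60 and 3.13 untreated, 4.25 and 5.17 with zVAD, 10.58 and 11.37 with LPS and 6.88 and 6.30 with LPS+zVAD.
The immediate early list had a median of 0.48 with zVAD alone and of 1.35 with LPS present, and 4 of its 23 members differed in each direction. With zVAD alone Egr1 had a log2 fold change of 3.19 (adjusted p = 0.131) and Maff of 3.23 (adjusted p = 0.451), and their differences of 0.78 and 0.73 were not called (adjusted p = 0.577 and 0.737). The Zfp list had 69 of 326 members more negative with LPS and 11 more positive, and the mitochondrial ribosome and the proteasome had 27 of 78 and 22 of 46 more negative, where all genes had 14.3%. With Nec-1 added to LPS+zVAD, 2976 genes were higher (18.8%) and 1559 lower (9.85%), a comparison that shares the LPS+zVAD arrays. The log2 fold changes with Nec-1 were -3.35 for Cxcr4, -3.31 for Hbegf, -2.54 for Egr1, -4.24 for Irf4, 4.17 for Gpr85, 2.997 for Zfp217 and 1.63 for Psma6. These genes were named for large changes with zVAD on the same LPS+zVAD arrays. That choice favours opposite signs with Nec-1, and a reversal by Nec-1 was not tested.

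In Ifnar1-/- cells, in which the receptor for type I interferon is incomplete, zVAD added to LPS gave 734 higher (4.64%) and 591 lower genes (3.73%). These arrays are separate from the WT ones and lie on other slides. Of the genes higher in WT cells 626 were also higher here, which is 30.7% of the WT genes and 85.3% of the Ifnar1-/- genes, and of the lower genes 476 were shared, 13.8% and 80.5%. The difference between the 2 zVAD effects had its own contrast, called in 567 genes (3.58%), 426 of them more positive in Ifnar1-/- cells (2.69%) and 141 more negative (0.891%). Blocking on the slide gave 2125 genes, and leaving out single arrays gave 122 to 1089, with 122 without Ifnar1-/- LPS+zVAD replicate 2, 146 without Ifnar1-/- LPS replicate 1, 171 without WT LPS replicate 2 and 198 without WT LPS+zVAD replicate 2. It was 281 and 278 without Ifnar1-/- LPS replicate 2 and Ifnar1-/- LPS+zVAD replicate 1, and 966 and 1089 without replicate 1 of WT LPS and of WT LPS+zVAD. Fitted from the 8 arrays alone, 3 genes were called, and of the 10 genes named for the largest differences 8 lost the call, all but Rsad2 and Ifit2.
The largest positive differences included 3 genes that interferon induces. Rsad2, which encodes the antiviral protein viperin, was at 6.93 and 6.73 with LPS and 15.56 and 15.31 with LPS+zVAD in Ifnar1-/- cells, where WT cells had 17.64 and 16.88 and 18.26 and 18.09, a difference of effects of 7.68 log2 (SE 1.05, adjusted p = 0.000713). Ifit2 in Ifnar1-/- cells went from 4.51 and 4.52, both below background, to 11.47 and 11.32, a called difference whose size is not given for that reason. Ifit3 went from 3.86 and 5.00, 1 of them below background, to 9.79 and 9.66 (difference 4.97, SE 0.62). In WT cells Ifit3 was at 17.33 and 16.86 already with LPS and at 17.25 and 17.59 with LPS+zVAD. Of the 40 interferon-stimulated genes on the list, 10 had a called difference. Pycr1, an enzyme of proline synthesis, fell in WT cells from 10.52 and 11.45 to 7.73 and 7.22 and stood at 5.97 and 4.63 and 6.07 and 5.31 in Ifnar1-/- cells. With LPS the Ifnar1-/- arrays were already below the WT LPS+zVAD arrays, so a fall of the WT size may not have been measurable there. The probe of 1700047E10Rik was below background on all 4 Ifnar1-/- arrays, so no size is given for its difference. The call for Pycr1 was lost without either WT second replicate, Ifnar1-/- LPS replicate 2 or either Ifnar1-/- LPS+zVAD array.
Among the largest negative differences were Irf4 (-5.49 log2), Ifi202b (-4.71), Akap12 (-4.35) and Rab15 (-4.30), all of which rose in WT cells, and Cdc6 was called too, with no size given since both WT LPS arrays were below background. The call for Ifi202b was lost without either WT second replicate or any 1 of the 4 Ifnar1-/- arrays, and that for Rab15 without either WT second replicate, Ifnar1-/- LPS replicate 1 or Ifnar1-/- LPS+zVAD replicate 2. Irf4 was at 8.50 and 9.0 with LPS and 8.48 and 8.96 with LPS+zVAD in Ifnar1-/- cells, so that the WT LPS arrays, at 4.07 and 4.82, were the low ones. Akap12, a scaffold of protein kinase A, went from 6.77 and 7.06 to 11.42 and 12.67 in WT cells and from 5.62 and 6.04 to 6.53 and 6.68 in Ifnar1-/- cells. Of the repressed factors, Zfp54 (-0.92), Zfp456 (-1.29) and Zfp3 (-1.04) had smaller log2 fold changes in Ifnar1-/- cells, with called differences of 3.56, 2.45 and 2.46. Gfi1, Pou2f2, Zfp760 and Zfp799 had no called difference. The difference uses the WT arrays by which these genes were named, which favours a positive sign. Of the 326 Zfp genes 22 had a called difference, where all genes had 3.58%. Csrnp1 (3.58 log2), Egr1 (3.83), Rgs1 (5.48), Dusp10 (5.32) and Rgcc (7.81) were called higher in Ifnar1-/- cells too.
The Ifnar1 probe was at 12.41 and 12.44 in Ifnar1-/- cells with LPS, against 14.36 and 14.59 in WT cells, and at 11.60 and 11.72 with LPS+zVAD, against 12.38 and 11.18. It is not known here whether this probe lies in the deleted part, so it is no check of the genotype labels.

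**Figure D5:**
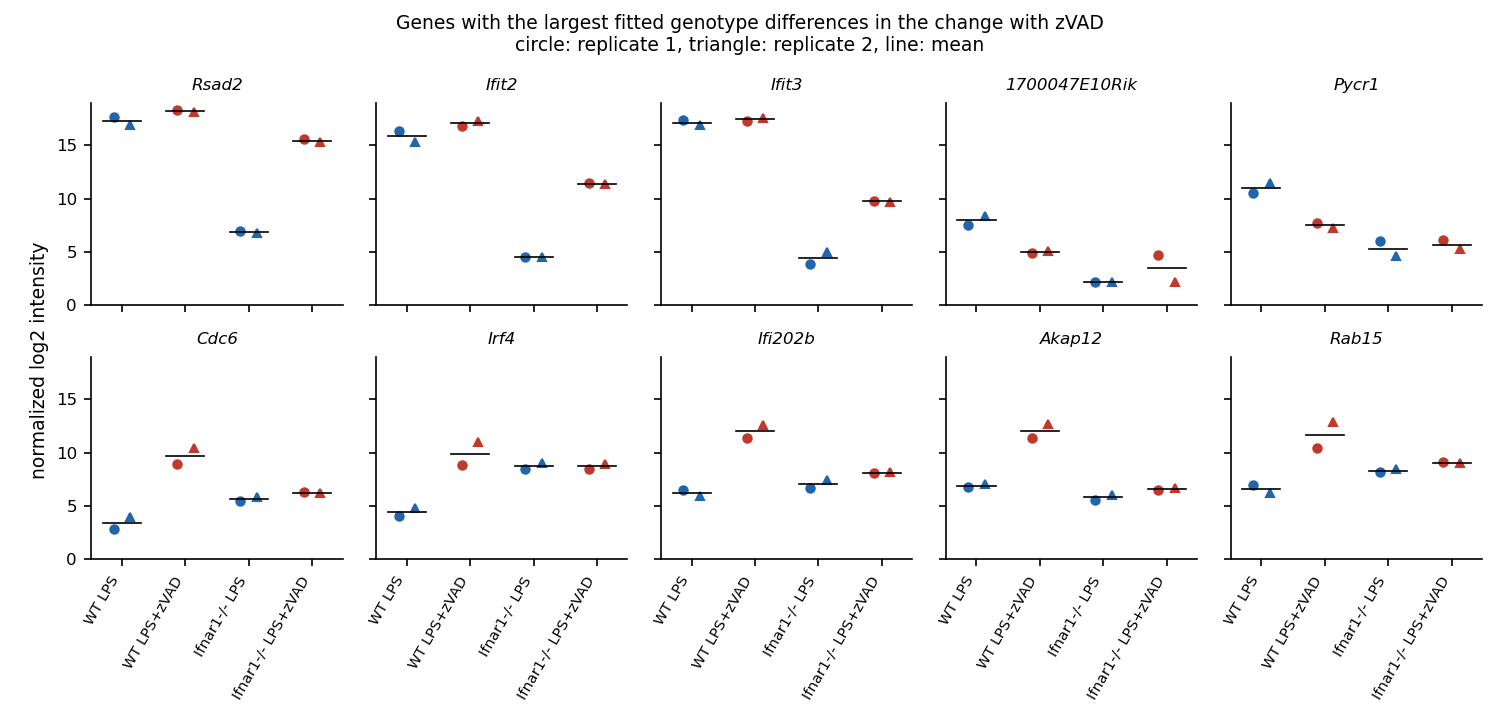
Normalized log2 intensity with LPS (blue) and LPS+zVAD (red) in WT and Ifnar1-/- BMDMs, for the 5 genes whose zVAD effect was more positive in Ifnar1-/- cells by the largest fitted value (top row) and the 5 where it was more negative (bottom row), probes below background included. Points are arrays and lines group means, and in the top row Rsad2, Ifit2 and Ifit3 rise in Ifnar1-/- cells from levels far below those in WT cells.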

How the data were processed

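RNA from BMDMs was hybridised to Agilent 1-colour arrays. The deposited scanner files hold the processed signal intensity of each spot after the scanner software's background correction. The authors also deposited a table of normalized log2 values, made with limma per the labels, whose version is not given in the sources used here and which served as an alternative. Here the log2 of the processed signal was taken, outlier spots were removed, spots of a probe were averaged and arrays were quantile normalized. A probe was kept if it was well above background on at least 50% of the arrays, and the brightest probe stood for a gene. Gene symbols are RefSeq symbols where available, which differed from those of the array design for 1924 probes, and otherwise those of the array design. The number of arrays limits the precision.

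Group means over all 32 arrays were fitted with limma 3.58.1 in R 4.3.3 (16 residual degrees of freedom), and the Benjamini-Hochberg adjustment of p-values ran over 15825 genes. SE is the moderated standard error of that fit, and a fold given as "at least" is the bright group's mean against the higher of the dim probe's own signal and the lowest signal well above background on each array. Differences between zVAD effects are interaction contrasts in the same fit. Each slide held the 8 treatments of 1 genotype and replicate number, as the file headers show, so the slide is the replicate block. Deviations of same-slide WT LPS and WT LPS+zVAD arrays correlated at r = 0.382, and those of WT groups at 0.382 to 0.67. A genotype difference in level cannot be told apart from the slide. In data simulated for the comparison of LPS+zVAD with LPS, the fit called 30 of 100 genes made to differ by 1 log2, 81 of 100 made to differ by 2 log2, and 9 that had no change. The simulation changed only 200 of 15825 genes and had independent noise without a slide effect. These rates therefore do not carry over to the measured comparison, where far more genes were called. Figures were drawn with matplotlib 3.10.9.

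The members and gene lists were chosen with earlier results of these data known. Named genes were the 8 largest called rises and the 8 largest called falls whose groups did not overlap and that were above background in the higher group, cytokines and chemokines left out, the 8 largest rises and falls among factors, at most the 2 largest rises and the 2 largest falls of each pathway list, the 5 largest differences between effects in each direction, and always Casp8, Cflar, Ripk1, Ripk3, Mlkl and Zfp36. Other named members were chosen after their values were seen, and some members are not reported here. Alternatives were a shift to the 75th percentile, normexp correction with an offset of 50, no filter on dim probes, the mean of a gene's probes, the slide as a block, fits of fewer arrays, the authors' values, and leaving out each array.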

Additional observations from a re-analysis of the deposited data

Results flagged for a closer look

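The zVAD effect differed between cells with and without LPS in 3400 genes and, with LPS, between Ifnar1-/- and WT cells in 567 genes, by the interaction contrasts. The genes below had a called difference between the genotypes, given as the effect in Ifnar1-/- cells minus that in WT cells in log2. For Cdc6, Tmem144, Map10, Ifit2, Nlrp1b and 1700047E10Rik at least 1 of the 4 groups was below background on both arrays, so their values are fitted and set no size or order. Of the 10 genes with the largest differences, 8 lost the call on the arrays compared alone, and over all alternatives the call was lost in 8 for 1700047E10Rik, 7 for Ifi202b, 6 for Pycr1 and 5 for Rab15. Among interferon-induced genes the differences were 7.68 for Rsad2, 5.67 for Ifit2, 4.97 for Ifit3 and 2.82 for Cmpk2, and Ifi202b, also induced by interferon, had -4.71. Among repressed factor genes, the called differences were 3.56 for Zfp54, 3.44 for Zkscan8, 2.46 for Zfp3, 2.45 for Zfp456 and 2.10 for Zfp217. Gfi1, Pou2f2, Zfp760 and Zfp799 had no called difference. Map10 (3.53), Tor4a (3.11) and Gpr85 (3.09) had positive ones. Positive differences were also found for 1700047E10Rik (4.22), Pycr1 (3.90), Nrg1 (3.12), Atg9a (2.97), Map3k11 (1.53), Psmd5 (1.47), Ndufaf1 (1.1), Ogdh (1.1) and Mrpl44 (1.09). Of the genes that rose in WT cells, negative differences were found for Cdc6 (-5.69), Irf4 (-5.49), Akap12 (-4.35), Rab15 (-4.30), Tmem144 (-3.80), Hbegf (-3.12), Bub1b (-2.68), Ccne1 (-2.52), Tgfbr1 (-2.40), Zfp36l2 (-2.33), Nlrp1b (-2.14), Mrps6 (-1.38) and Atp6v1h (-1.05).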

How the results depend on the processing

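The counts over all genes depended on the fit, and so did many list counts and small list medians, some of which changed sign. With zVAD added to LPS in WT cells, the slide as a replicate block gave 7629 calls, 3176 higher and 4453 lower. The rises were 1318 at an adjusted p under 0.01, and 2233 genes fell by at least 2-fold. Fitted on the arrays compared alone, 1673 genes were called, 731 higher and 942 lower. Leaving out 1 array gave 3546 to 5214 calls, 1103 to 2039 higher and 2136 to 3460 lower. For the zVAD effect with LPS against that without it, the block gave 5898 (2332 and 3566), the arrays compared alone 1089 (478 and 611), and leaving out 1 array 2093 to 3641 (597 to 1353 and 1366 to 2517). For Ifnar1-/- against WT, the 75th percentile shift gave 348 (246 more positive), no filter on dim probes 271 more positive, the block 2125 (1434 and 691), the arrays compared alone 3 (3 and 0), leaving out the Ifnar1-/- LPS+zVAD+Nec-1 arrays 955 (669 and 286), the authors' normalized values 254 (179 and 75), and leaving out 1 array 122 to 1089 (84 to 766 and 36 to 327). Among the named genes with a call for LPS+zVAD against LPS, Itgb3 was the one that changed sign in an alternative, at -0.35 log2 in the mean of its probes. Of 171 named genes, 63 lost their call on the arrays compared alone, 46 lost their call without at least 1 array, 34 of them without WT LPS+zVAD replicate 2 and 31 without WT LPS replicate 2. The cause of these moves was not tested.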

Other observations

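The share of genes called lower differed with the signal level. In quartiles of the mean log2 intensity, from dim to bright, it was 8.31%, 22.9%, 29.5% and 26.5% of all genes, and 44.3%, 49.2%, 31.8% and 8.33% of the genes named Zfp.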
